A study of Zea mays with 9 samples.

Results

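Anthocyanin genes a2, pl, chi1 and f3h were followed across 9 RNA-seq libraries of maize leaves. These 4 genes, of 30184 in the table, were taken by their identifiers (LOC100127010, LOC732799, LOC100276821 and LOC542712) and had been selected on their normalized counts in the 3 groups, as seen in earlier results, so their differences between groups are described without a test. All 4 passed the minimum on low values. The leaves were second leaves of seedlings aged 9 days of the hybrid CG108 × CG102. W seedlings grew beside a surrogate weed that lowered the ratio of red to far-red light (R:FR) to about 0.6, a biological source of low R:FR. FR seedlings received added far-red light to the same R:FR of about 0.6, an artificial source. WF seedlings were the weed-free control at an R:FR of about 1.5. These ratios are those of the sample labels. The study's methods give a higher ratio for the control and a slightly lower one for both sources of low R:FR. All groups received a photon flux of 500 to 600 µmol per square metre and second, 16 h of light and 8 h of dark, 23 °C by day and 18 °C by night, and 60% humidity. Leaves of 3 plants were pooled for each library, with 3 libraries in each group. The labels do not say whether the pools came from separate chambers or runs, so the spread between libraries may be partly technical.

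Anthocyanins are red and purple flavonoid pigments kept in the vacuole, which in leaves are known to respond to light and stress. Their synthesis starts from phenylalanine (phenylalanine ammonia-lyase, pal1), enters the flavonoid pathway at chalcone synthase (c2 and whp1), and passes through chalcone isomerase (chi1) and flavanone 3-hydroxylase (f3h). Late steps form the coloured anthocyanidin (anthocyanidin synthase, a2), attach glucose to it (bz1) and prepare it for the vacuole (the glutathione S-transferase bz2). In maize, a MYB factor (pl in plant tissue, c1 in the kernel) and a bHLH factor (r1) together switch on the structural genes, with the WD40 protein of pac1.

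The genes lie apart in the genome. In the build Zm-B73-REFERENCE-NAM-5.0, a2 lies on chromosome 5 from 68086720 to 68088262 on the plus strand, and pl on chromosome 6 from 119938927 to 119940495 on the plus strand. The gene chi1 lies on chromosome 1 from 300070678 to 300072067 on the minus strand, and f3h on chromosome 2 from 3821721 to 3823640 on the plus strand. These spans are whole genes and are the same in the deposited files and in the RefSeq annotation. A second locus, LOC606406, also carries the synonym a2 and was kept apart.

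The deposited values are read counts divided by a size factor of each library, called normalized counts here. Reads recovered from them summed to between 22775151 and 40283408 per library. The recovered totals of the FR and WF libraries made up 71.7% to 133.9% of the read totals listed elsewhere for libraries of the same label, and 97.8% to 98.0% once the labels FR and WF were exchanged. Those of W made up 97.5% to 99.1% of their own. The deposited labels are used below. If the labels FR and WF were exchanged, every direction of FR against WF below would turn round and W against WF would change places with W against FR. Mean distances from all other libraries, of the same and of the other groups, were 0.909 (log2) for W replicate 3. They were 0.576 to 0.650 for the other libraries. In W replicate 3, 897 genes lay at least 4-fold below the other libraries, against 16 to 120 genes in each other library. Summed over 9 matched markers of mature leaf, normalized counts were 2685168 to 2936247 in W, 2492033 to 2944321 in FR and 2453201 to 2704333 in WF. Only whole leaves were measured, so more cells that make pigment and more RNA per cell cannot be told apart.

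The regulator pl, a MYB factor that switches on pigment genes in plant tissue, was lower under both sources of low R:FR. It had normalized counts of 145, 143 and 177 in W, 82.8, 79.8 and 132 in FR, and 199, 209.5 and 212 in WF. All W libraries lay below all WF libraries, and all FR libraries lay below all W libraries. Means were 155 ± 18.8 in W, 98.3 ± 29.6 in FR and 207 ± 7.14 in WF (SD, n = 3 each). The log2 fold change was -0.42 (SE 0.15) in W vs WF and -1.10 (SE 0.19) in FR vs WF.

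The enzyme chi1, chalcone isomerase, closes the ring of the flavonoid skeleton. Its normalized counts were 2473, 1932 and 3814 in W, 2119.7, 1704 and 2278 in FR, and 2648, 2918 and 2827 in WF. Every FR library lay below every WF library, while the W libraries spread on both sides of WF, with W replicate 3 the highest of all. Means were 2739.6 ± 969 in W, 2034 ± 297 in FR and 2798 ± 137 in WF (SD, n = 3 each). The log2 fold change was -0.47 (SE 0.11) in FR vs WF. In W vs WF it was -0.09 (SE 0.24), with -0.35 without W replicate 3 and 0.14 without W replicate 2.

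The enzyme f3h, flavanone 3-hydroxylase, makes the dihydroflavonols from which both flavonols and anthocyanins derive. It had 2030.3, 1981 and 2359 normalized counts in W, 943, 807 and 1347 in FR, and 1346, 1546 and 2077 in WF. The W mean was the highest and the FR mean the lowest, but neighbours in this order overlapped. FR replicate 3 and WF replicate 1 were nearly equal, and WF replicate 3 lay above W replicates 1 and 2. Means were 2123 ± 205 in W, 1032 ± 281 in FR and 1656 ± 378 in WF (SD, n = 3 each). The log2 fold change was 0.38 (SE 0.18) in W vs WF and -0.69 (SE 0.20) in FR vs WF.

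The late enzyme a2, anthocyanidin synthase, was well above the lower limit of detection in all libraries of low R:FR and near it in 2 WF libraries. Normalized counts were 225, 218 and 235 in W, 202, 96.7 and 253 in FR, and 1.79, 1.28 and 28.4 in WF. The WF values stand for 2, 1 and 30 reads. All W and all FR libraries lay above all WF libraries, and W overlapped with FR. Summed over the libraries, a2 had 679 reads in W and 33 in WF, a ratio of 20.3 (95% counting interval 14.3 to 29.8) once library size is taken into account. In FR it had 634 reads, a ratio to WF of 17.0 (12.0 to 24.9). WF replicate 3 held 30 of the 33 WF reads. Without it the ratio was 144 (49.0 to 699) for W and 120.3 (41.0 to 585) for FR, each against 3 reads in WF. On the log2(normalized count + 1) scale the fold change was 5.31 (SE 0.91) in W vs WF and 4.90 (SE 0.87) in FR vs WF. With TPM values it was 2.54 and 2.28, since adding 1 weighs more on low TPM, and without WF replicate 3 it was 6.49 and 6.09. The second locus named a2 had means of 1245 ± 6.89 in W, 1077 ± 46.8 in FR and 1263 ± 67.8 in WF.

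**Figure D1:**
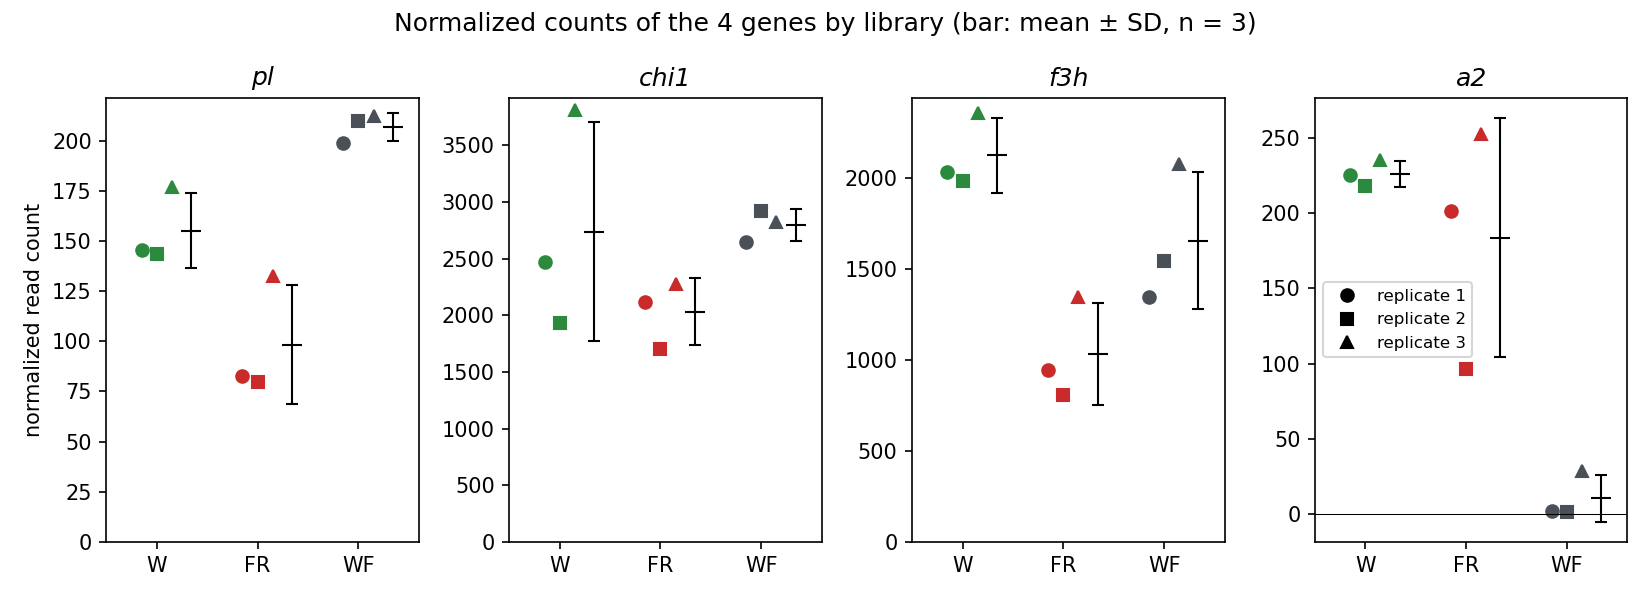
Normalized read counts (vertical axes, each from 0 or just below it) of pl, chi1, f3h and a2 in each of 9 libraries, with replicates 1, 2 and 3 as circle, square and triangle and the mean ± SD beside them. All libraries of W and FR lie above all libraries of WF for a2 and below them for pl.

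Against WF, 1 of the 4 genes lay above without overlap in W (a2) and 1 below (pl), while in FR 1 lay above (a2) and 2 below (pl and chi1). Over all genes tested, 8.58% lay above and 9.13% below without overlap in W vs WF, and 17.9% lay above and 17.5% below in FR vs WF. W and FR are compared with the same WF libraries, and the 4 genes were picked for their values, so nothing is read from these counts.

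Transcript levels per length, in TPM (length-scaled transcript counts that sum to the same total in every library), put the 4 genes in order within a library. In W libraries chi1 was at 113 ± 26.2 TPM, f3h at 52.7 ± 1.49, pl at 6.94 ± 0.215 and a2 at 6.37 ± 0.611. In FR libraries chi1 was at 90.8 ± 18.3 TPM, f3h at 27.4 ± 8.69, a2 at 5.51 ± 2.61 and pl at 4.40 ± 1.46. In WF libraries chi1 was at 124 ± 7.01 TPM, f3h at 43.5 ± 11.1, pl at 9.47 ± 0.554 and a2 at 0.313 ± 0.481 (SD, n = 3 each). The early enzymes chi1 and f3h were thus the first and second in every group, with no overlap between them or with pl and a2. The order of pl and a2 was clear only in WF, where all libraries held more pl. In W, pl was above a2 in 2 of 3 libraries, and in FR a2 was above pl in 2 of 3, and the values of both genes overlapped in both groups.

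**Figure D2:**
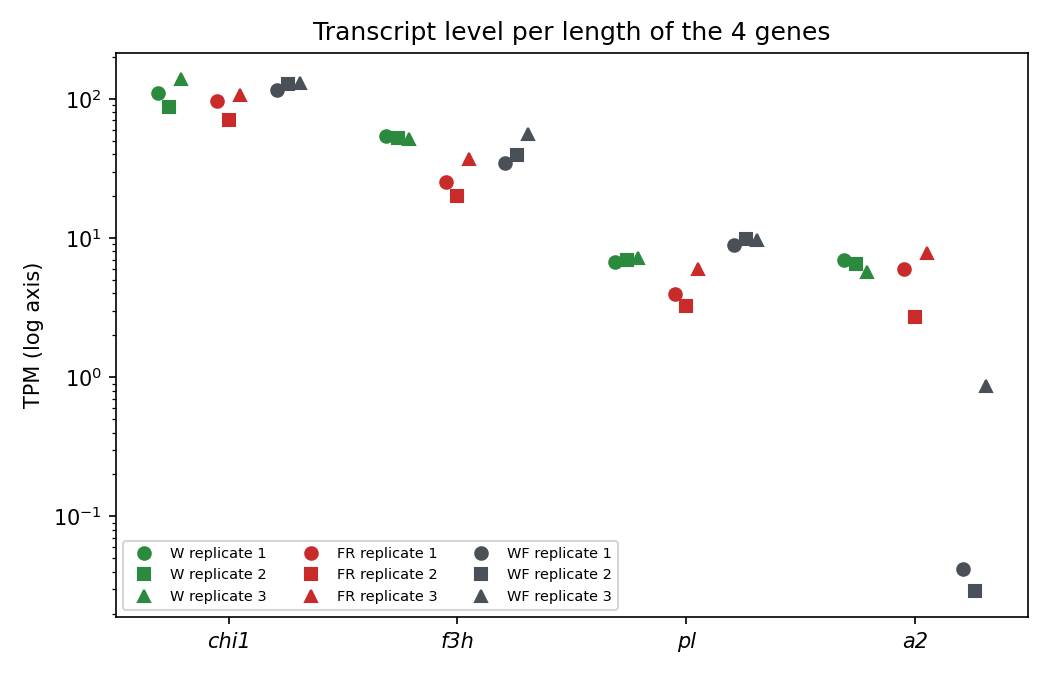
Transcript level in TPM (vertical log axis) of chi1, f3h, pl and a2 in the 9 libraries, by group (W, FR, WF from left to right within each gene) and replicate. Only a2 in WF falls below 1 TPM, at 0.0289, 0.0418 and 0.869 TPM.

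Between the sources of low R:FR, all 4 genes had higher means in W than in FR. The difference on the log2(normalized count + 1) scale was 1.07 (SE 0.20) for f3h, 0.69 (SE 0.24) for pl, 0.41 (SE 0.34) for a2 and 0.38 (SE 0.26) for chi1. For f3h and pl all W libraries lay above all FR libraries, beside 8.93% of all genes that lay above in this way and 6.84% below, while a2 and chi1 overlapped. The value of a2 rested on FR replicate 2, its lowest FR library, without which the difference was 0.00. That of chi1 was 0.11 without W replicate 3. These values took part in the choice of the 4 genes, so no test is given.

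Markers of epidermis, where leaf pigment is often found, were also summed in each library, without a test. The summed normalized count of 8 matched markers was 9139 to 10177 in W, 7186 to 7752 in FR and 7707 to 8774 in WF. Sums of FR and WF overlapped, and those of W lay above both. The order of the group means, W above WF above FR, was that of f3h and not that of pl, chi1 or a2. All 8 were in the table and 6 had a mean of at least 10. The other 2, ocl4 and ocl2, were at 1.26 to 10.2 and 0 to 11.4. The wax gene gl1 made up most of the sum, with means of 6199 ± 434 in W, 4096 ± 511 in FR and 5231 ± 621 in WF (SD, n = 3 each). Of the other markers with a mean of at least 10, ocl3 and gl15 shared the order of gl1. Means of ocl3 were 989 ± 94.3 in W, 869 ± 27.2 in FR and 940 ± 38.2 in WF. Those of gl15 were 106 ± 20.5 in W, 70.8 ± 5.77 in FR and 105 ± 14.4 in WF. The markers ocl1, ocl5 and gl8 did not share that order. The homeobox gene ocl1 averaged 1351 ± 67.5 in W, 1410.3 ± 202 in FR and 1218 ± 56.0 in WF, and gl8, a wax gene, 210.2 ± 9.08 in W, 172 ± 14.3 in FR and 218 ± 49.9 in WF. The part of the epidermis in the differences of f3h was not tested.

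Other genes of the pathway were counted from lists of regulators, early and late enzymes, flavonoid branches and the entry from phenylalanine, 13 genes in the table beside the 4. Matched by symbol but absent from the table were ugt708a6, the only match of the flavonoid branches, the late enzyme a1 and the regulator p1. Their levels are therefore not known. Of the 13, 11 passed the minimum on low values. The 2 below it were regulators. The kernel factor c1 had 7.58, 1.04 and 1.62 normalized counts in W, 6.82, 5.98 and 6.89 in FR and 0, 0 and 4.74 in WF. The other, myb3, stayed under 5 in all libraries.

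In FR vs WF, limma called 2 of the 11 higher (18.2%, against 9.98% of all 23450 genes tested) and 3 lower (27.3%, against 11.9%). The median log2 fold change of the 11 was -0.28, and that of all genes 0.01. Both genes that rose are late enzymes, like a2. The glucosyltransferase bz1 had 81.8, 44.9 and 113 normalized counts in FR and 21.5, 24.3 and 33.2 in WF. Its log2 fold change was 1.49 (SE 0.34, adjusted p = 0.0244). The glutathione S-transferase bz2 had 195, 103 and 219.7 normalized counts in FR and 28.6, 6.39 and 71.1 in WF, without overlap. Its log2 fold change was 2.72 (SE 0.70, adjusted p = 0.0368), and it was not called without FR replicate 1. It was 1.83 without WF replicate 2 and 3.48 without WF replicate 3. The third counted gene of that list, mrp4, a transporter also known as lpa1 for phytic acid, was at -0.06 (SE 0.13, adjusted p = 0.8). The second locus named a2 matched that list by its synonym but was left out of the 11. It was at -0.23 (SE 0.076, adjusted p = 0.08 in limma), which is under the threshold, with all FR libraries below all WF libraries.

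The 3 genes that fell in FR vs WF act early or as regulators. They were pal1, with 1251, 905 and 1493 normalized counts in FR and 1582, 1649.5 and 2239 in WF, the chalcone synthase gene chs1, with 119, 134 and 147 in FR and 177, 206 and 164 in WF, and the second of 2 loci that carry the synonym pac1, with 50.6, 73.8 and 65.1 in FR and 84.2, 83.1 and 117 in WF. No FR library overlapped with WF for any of them. Log2 fold changes were -0.60 (adjusted p = 0.0697) for pal1, -0.45 (0.0646) for chs1 and -0.57 (0.0978) for the second pac1 locus. Other early genes and regulators were not called by limma. The first pac1 locus was at -0.28 (adjusted p = 0.111), c2 at -0.33 (0.236) and 4cl at -0.29 (0.381). The gene whp1 was at 0.13 (0.636) and r1 at 0.015 (0.976). The call of bz1 was kept under every alternative run. All 3 calls of lower genes were lost without WF replicate 1, 2 or 3, without FR replicate 1, with all 9 libraries in 1 fit and with an adjusted p under 0.05. Reads of chs1, c2 and whp1 may be split among similar copies of chalcone synthase.

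In W vs WF, limma called 0 of the 11, with 5 at an unadjusted p under 0.05. Of all 23600 genes limma called 11 higher (0.0466%) and 0 lower (0%), with 2374 at an unadjusted p under 0.05. DESeq2 called 3 of the 11, beside 321 higher and 128 lower of all genes, and edgeR called 0 of the 11. The W values of the late enzymes were close to those of FR, with 88.5, 70.6 and 84.0 normalized counts for bz1 and 234, 146 and 223 for bz2, all above WF. Log2 fold changes in W vs WF were 1.60 (SE 0.24, adjusted p = 0.131) for bz1 and 2.98 (SE 0.75, adjusted p = 0.295) for bz2, the second being 2.10 without WF replicate 2 and 3.74 without WF replicate 3. Without W replicate 3 limma called 3 of the 11 higher (27.3%, against 4.6% of all genes) and 0 lower (0%, against 3.71%). They were bz1 at 1.57 (adjusted p = 0.0336), bz2 at 2.89 (0.0844) and the chalcone synthase gene whp1 at 1.10 (0.0359). The gene whp1 had 1521, 1079.9 and 1183 normalized counts in W, 543, 715 and 722 in FR, and 594, 482 and 744 in WF, so that only W stood apart.

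In W vs FR, 0 of the 11 were called by limma, with 3 at an unadjusted p under 0.05. Of all 23476 genes limma called 0 (0%), with 1962 at an unadjusted p under 0.05. DESeq2 called 1 of the 11 (whp1), beside 199 higher and 51 lower of all genes, and edgeR called 0 of the 11 and 0 of all genes. Of the 11, 4 lay higher in W without overlap and 0 lower, against 8.93% and 6.84% of all genes. These 4 were c2, whp1, pal1 and the first pac1 locus, which were named after their values were seen. Log2 differences were 0.81 (SE 0.21) for c2, 0.93 (SE 0.18) for whp1 and 1.02 (SE 0.24) for pal1, beside 1.07 for f3h. For bz1 and bz2 they were 0.11 (SE 0.34) and 0.26 (SE 0.33), beside 0.41 for a2.

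**Figure D3:**
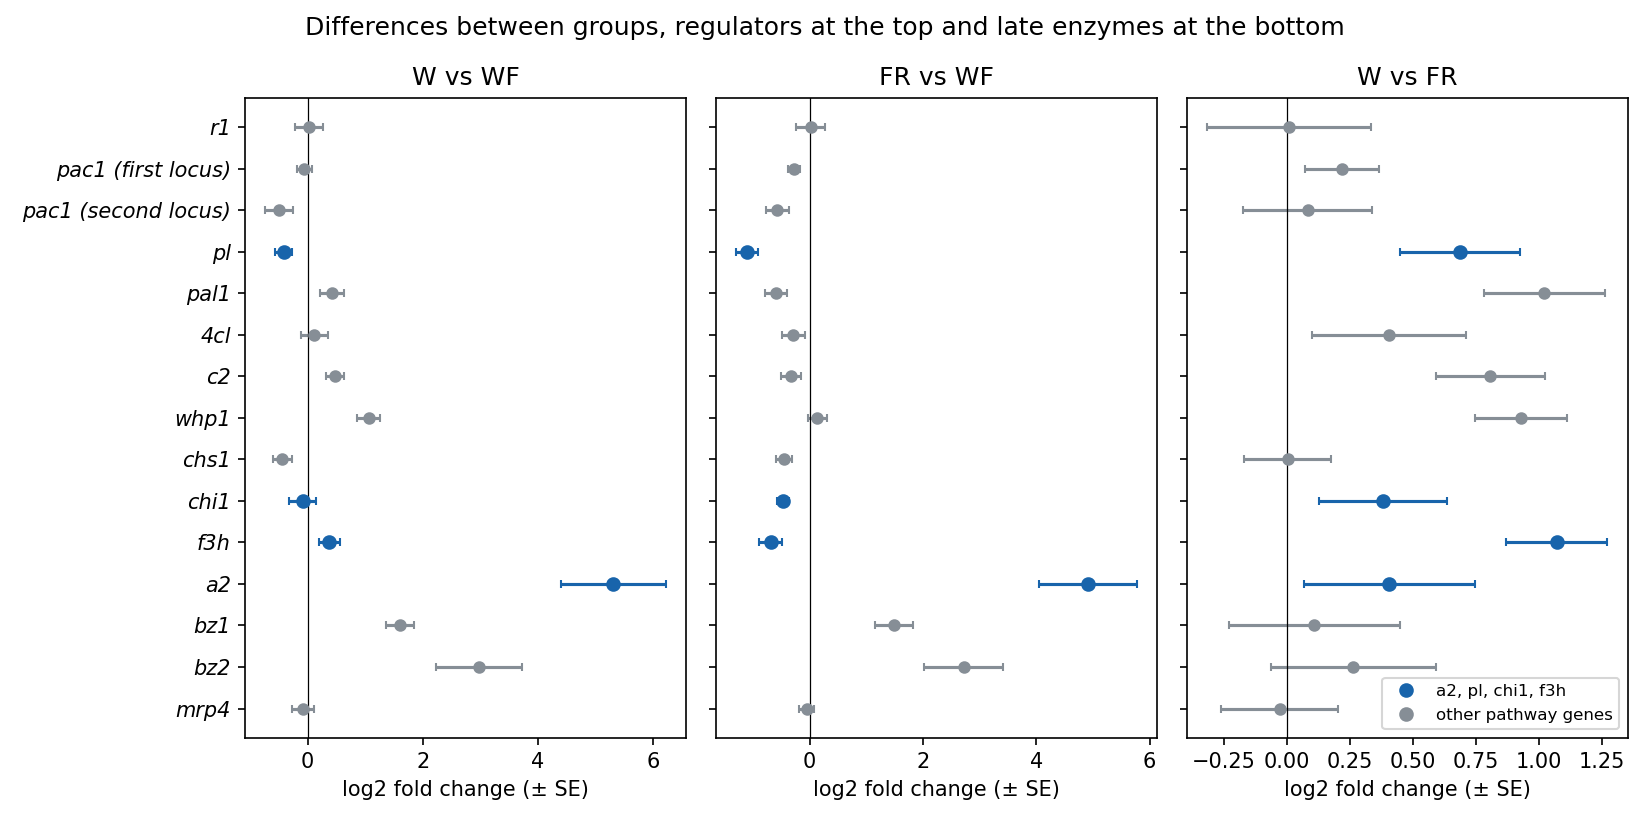
Log2 fold changes on the log2(normalized count + 1) scale (points, ± SE) of the 4 genes (blue) and 11 other pathway genes (grey), regulators at the top and late enzymes at the bottom. Each panel has its own range on the horizontal axis. The late enzymes a2, bz1 and bz2 lie far to the right in both comparisons with WF, between 1.49 and 5.31, and between 0.11 and 0.41 in W vs FR.

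Within groups, libraries were compared by normalized counts. All 4 genes were highest in FR replicate 3 and lowest in FR replicate 2 among the FR libraries, where 35.4% and 33.8% of all 24093 genes had their highest and lowest value, and TPM gave the same order. Among the W libraries all 4 were highest in W replicate 3 and lowest in W replicate 2, where 42.1% and 33.1% of all genes did so. TPM did not give that order, since a2 and f3h were lowest in W replicate 3 and pl in W replicate 1. Among the WF libraries 3 of the 4 (a2, pl and f3h) were highest in WF replicate 3, while chi1 was highest in WF replicate 2, and by TPM chi1 was highest in WF replicate 3 and pl in WF replicate 2. Of the 15 pathway genes over the minimum, the 4 genes included, 9 were highest in W replicate 3 (60.0%, against 42.1% of all genes) and 6 in W replicate 1. In FR replicate 3, 13 were highest (86.7%, against 35.4%), and in WF replicate 3, 12 of the 15 were, against 33.3% of all genes.

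Correlations over the 9 libraries describe the same pattern and share libraries and group differences. Pearson r on the log2 scale was 0.75 between pl and chi1, 0.75 between pl and f3h and 0.67 between chi1 and f3h. The late enzyme a2 stood apart, with r of -0.58 to pl, -0.28 to chi1 and 0.06 to f3h, and -0.67, -0.66 and -0.06 without W replicate 3. It ran with bz2 (r = 0.95) and bz1 (r = 0.94). After group means were removed, r was 0.82 between pl and f3h, 0.76 between a2 and f3h, 0.61 between pl and chi1, 0.53 between chi1 and f3h, 0.29 between a2 and pl and 0.17 between a2 and chi1. With group means kept, f3h ran with pal1 (r = 0.96) and c2 (r = 0.92) over the 9 libraries. With group means removed, these values were 0.87 for pal1 and 0.81 for c2.

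**Figure D4:**
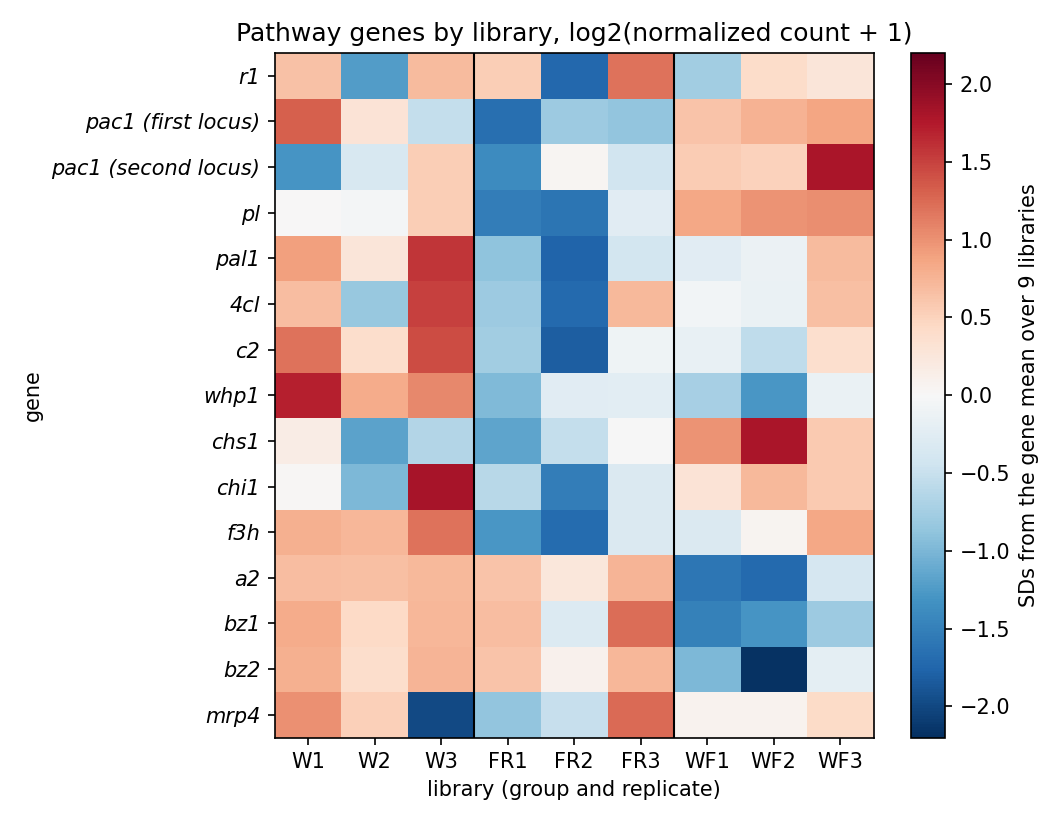
Pathway genes (rows) in the 9 libraries (columns, groups W, FR and WF from left to right), as SDs from the gene's mean over all libraries on the log2(normalized count + 1) scale. In a2, bz1 and bz2 the WF columns are lowest, while in f3h, c2 and pal1 the W columns are high and FR replicate 2 is lowest.

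Among all 24093 genes over the minimum in the 9 libraries, the 5 most alike to each gene had Pearson r of 0.958 to 0.988 with a2, 0.976 to 0.987 with pl, 0.968 to 0.973 with chi1 and 0.976 to 0.988 with f3h. Most of them carry no gene name. The closest to a2 was LOC100281894 (r = 0.988, and 0.987 without W replicate 3), with means of 177 normalized counts in W, 159 in FR and 20.4 in WF. The closest to pl was LOC100191481 (r = 0.987, and 0.988 without W replicate 3), with means of 269 in W, 177 in FR and 379 in WF. The closest to chi1 was bk2, known for brittle stalks and a COBRA-like protein of the cell wall (r = 0.973, and 0.962 without W replicate 3). The closest to f3h was LOC100217040 (r = 0.988, and 0.985 without W replicate 3), and the third was CesA13, of the cellulose synthase family (r = 0.982, and 0.978 without W replicate 3). Without W replicate 3, of each 5 genes 3 stayed among the first 5 for a2, 3 for pl, 1 for chi1 and 3 for f3h. The mean of the 4 profiles had pal1 among its 5 closest genes (r = 0.980, and 0.970 without W replicate 3).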

How the data were processed

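RNA-seq was performed on second leaves of maize in 3 groups of 3 libraries. The signal values deposited by the authors are read counts of 30184 genes divided by a size factor per library (DESeq2 1.30.1, after Bowtie2 2.4.3 and HTSeq 0.13.5, per the submitters' processing notes). The authors also deposited TPM per gene, scaled by length and library total. The study's methods name STAR and featureCounts instead, and whether strand was used is not given in the sources used here. The authors' comparison tables, which hold fold changes and p-values, were not used. Within a tolerance of 0.01, 100% of the normalized counts were whole multiples of 1 step in each library, so whole reads were recovered. In FR replicate 2 this step is too near 1 to be checked, and DESeq2 and edgeR were run without it.

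Groups were compared in pairs on log2(normalized count + 1) with limma 3.58.1 and a variance trend, leaving out genes under a normalized count of 10 in more than 3 of 6 libraries. A gene was called at a Benjamini-Hochberg adjusted p under 0.1 over all genes. The 4 genes were given no test in any comparison, although one had been planned for W vs FR, since they were chosen from all 3 groups. The added 1 shrinks fold changes of low genes, but values on this scale can still exceed those from reads. For a2 in W vs WF the log2 fold change was 5.31, against 4.43 with DESeq2 on recovered reads. The alternatives were the Wald test of DESeq2 1.42.0 and the quasi-likelihood test of edgeR 4.0.16 (R 4.3.3), an adjusted p under 0.05, pseudocounts of 0.5 and 5, no filter, TMM, TPM, a joint fit of 9 libraries, a replicate block and leaving out each library. Tables and plots were made with Python 3.11.15, numpy 2.4.6, pandas 2.3.3, scipy 1.17.1 and matplotlib 3.10.9. The fits were also run on simulated data with the same relative spread for every gene and no library set apart. That setting is unlike these data, so the run says nothing on how the fits handle them. Intervals on sums of reads are exact at 95% and cover counting error only.

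The 4 genes, the pathway lists and the markers were chosen with earlier results of these data known. Named are the 4 genes, the pathway genes that passed against WF, and the 5 genes most alike to each by Pearson r. Of these the text gives the first of each, with CesA13 and pal1 added after their values were seen. RefSeq names (assembly Zm-B73-REFERENCE-NAM-5.0) matched 29125 identifiers, and lists were matched by symbol only. Same-numbered W and FR libraries deviated together, with correlations of 0.124, 0.255 and 0.146 over 24093 genes. The block fit, run in every comparison, grouped libraries by replicate number, while the main fits did not.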

Additional observations from a re-analysis of the deposited data

How the results depend on the processing

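For the 4 genes against WF, 118 of 120 values under the alternatives moved by less than the spread between libraries. The 2 others were those of a2 with TPM values, where the added 1 weighs more. The 120 include values with no filter, all 9 libraries in 1 fit or a replicate block. Those settings cannot move a fold change in this design, so their values say nothing on stability. With 1 of the 3 libraries of a group left out, the change is always smaller than this spread. Those values therefore say nothing on stability either. The number of other pathway genes called in W vs WF was 0, against 3 with DESeq2 and 1 with all 9 libraries in 1 fit, and 0 to 3 when 1 library was left out (3 without W replicate 3). In FR vs WF it was 5, against 2 at an adjusted p under 0.05, 3 with DESeq2 and 2 with all 9 libraries in 1 fit, and 1 to 6 when 1 library was left out. In W vs FR it was 0, against 1 with DESeq2 and 1 with all 9 libraries in 1 fit, and 0 in all fits with 1 library left out. No call turned its direction. In W vs FR, all 60 values of the 4 genes under the alternatives run moved by less than the spread between libraries. These 60 also include the settings that cannot move a fold change. They include the fits with 1 library left out too, where the change cannot exceed the spread. Among single values of the other pathway genes, 25 of 528 lost a call, 12 gained one and 38 uncalled values changed sign. The cause was not tested.

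With the replicate number as a block, 0 pathway genes were called in W vs WF, 6 in FR vs WF (c2 gained, lower) and 0 in W vs FR. Same-numbered libraries correlated at 0.124, -0.007 and 0.056 for W and WF and -0.003, 0.083 and 0.095 for FR and WF. These are not all above 0.1, unlike those of W and FR. The main fits had no block in any comparison. Treatments were randomized between replications, and the study lays out its experiments in randomized complete blocks, with block as a random effect. The labels do not say that the replicate number is the block, but a number may stand for one.

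Over all genes, W vs WF gave 11 calls higher and 0 lower, against 321 and 128 with DESeq2, 82 and 12 with all 9 libraries in 1 fit, 45 and 16 with TPM, 1 and 0 with the block, and 0 to 1071 and 0 to 865 with 1 library left out. FR vs WF gave 2341 and 2780, against 365 and 753 with all 9 libraries in 1 fit, 2298 and 3107 with edgeR, and as low as 1019 and 1274 with 1 library left out. W vs FR gave 0 and 0, against 199 and 51 with DESeq2, 238 and 22 with all 9 libraries in 1 fit, 22 and 2 with a pseudocount of 5, 24 and 3 with TPM, and 65 and 39 without W replicate 3. Fits that leave out a library assume that the remaining 2 vary like the rest. At 2 and 1 reads, a2 in WF replicates 1 and 2 is limited by depth.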
